A study of Saccharomyces cerevisiae with 4 samples.

Results

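The autophagy genes of starved, meiotic yeast were examined as the set of genes whose listed name is ATG followed by a number. The rule found 31 genes among the 6682 listed, the same 31 in the tables of both strains. All 31 had reads in all 4 libraries and all passed the filter on low values, so every one was tested. Genes were compared between ndt80pch2, in which NDT80 and PCH2 are deleted, and ndt80, in which NDT80 alone is deleted, so both strains lack Ndt80, the transcription factor that drives exit from meiotic prophase. Pch2 is an AAA+ ATPase that remodels meiotic chromosome proteins. All cells were of the SK1 background, which sporulates efficiently, and were taken after 4 h in potassium acetate sporulation medium, which lacks a nitrogen source. The strain of each sample was read from its title, since the descriptions of the ndt80pch2 samples name the NDT80 deletion alone. Each strain had 2 libraries, called C and D for ndt80pch2 and A and B for ndt80, because the values do not show which was replicate 1 or 2. No label ties the 2 libraries of a strain to separate cultures, so p-values measure the spread between these libraries, which may be technical.

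Autophagy encloses cytoplasm in a double membrane and delivers it to the vacuole for breakdown. In yeast starved for nitrogen it supplies amino acids and other building blocks, and it is needed for entry into meiosis and sporulation. The Atg1 kinase complex starts the process, a Vps34 lipid kinase complex marks the membrane, Atg9 vesicles and Atg2 feed it with lipid, and a pair of ubiquitin-like conjugation systems attach Atg8 to it. Selective receptors bind a cargo on one side and Atg8 on the other.

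The strain labels and the state of the cells were checked first. PCH2 had 0 reads in both ndt80pch2 libraries, against 710 and 776 reads in the ndt80 libraries. With 3 reads taken as the floor of each library, which covers counting error only, the level of PCH2 in ndt80pch2 was at least 189-fold lower than in ndt80. NDT80 had 0 reads in all 4 libraries. The meiotic prophase genes IME1, IME2, SPO11, DMC1, HOP1, RED1, REC8 and ZIP1 all had reads in every library, with IME2 at 1041 ± 128 TPM in ndt80pch2 and 959.7 ± 95.3 TPM in ndt80 (SD, n = 2 each). DMC1, the meiotic recombinase gene, stood apart from the other 7, at 241.6 ± 15.3 TPM in ndt80pch2 and 483.5 ± 10.4 TPM in ndt80 (limma-trend adjusted p = 0.07029, limma-voom 0.000591); whether it moves with the autophagy genes was not tested. The middle sporulation genes SPS1, SPS4, SMK1 and SPR3, which Ndt80 activates, had 29.9 to 153 TPM, and CLB1 had 2.52 to 6.57 TPM. The mating pheromone genes MFA1 and MFA2 had 0 reads in all libraries, while the pheromone receptor genes STE2 and STE3 had 10 to 41 reads (5.051 to 16.82 TPM). FUS1, also on the mating list, had 11 to 39 reads. MFA1 and MFA2 have only 111 and 117 coding bases, so their floor of 3 reads is 13.6 to 19.8 TPM. A level like that of the receptor genes could thus be missed. TPM here is reads per kilobase of coding length scaled to equal totals, so that levels of genes of different length can be set side by side.

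The deposited ndt80 value of an autophagy gene could not be used as listed. From the first mitochondrial row, row 94, each value of that column averages the listed gene in library A with another gene in library B, the one that holds this row number once the 18 mitochondrial genes are taken out of the list. The 31 autophagy genes stand in rows 305 to 335, and because the list is alphabetical most of them were averaged with one another. The row of ATG1 lists 262 and is the mean of ATG1 in library A (504 TPM) and ATG14 in library B (20.03 TPM). The row of ATG9 lists 454 and is the mean of ATG9 in library A (112.3 TPM) and ATP1, a mitochondrial ATP synthase gene, in library B (795.7 TPM). Read row by row, ATG1 would stand 2.07-fold higher and ATG9 at 0.227 of its level in ndt80pch2 relative to ndt80. After each library's reads were assigned back to their own genes, the ratios of ndt80pch2 over ndt80 were 1.04 for ATG1 and 0.891 for ATG9. Between the columns as deposited, 10 of the 31 genes differed 2-fold or more, against 32.2% of all 5784 genes tested. In the recovered strain means 0 of 31 differed by that much, against 3.53% of all genes tested. By ratio, the largest misreading was that of ATG10 (11-fold), whose row lists 71.85 where the recovered mean of the ndt80 libraries was 6.526 TPM.

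**Figure D1:**
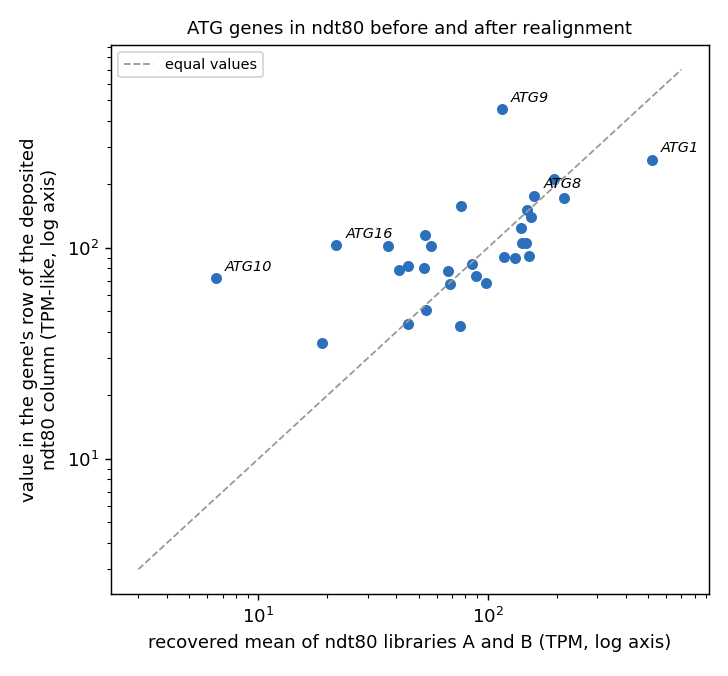
Value in each ATG gene's own row of the deposited ndt80 column (y axis, TPM-like, log scale) against the mean of ndt80 libraries A and B after the reads were assigned back to their genes (x axis, TPM, log scale); each point is 1 of 31 genes and the dashed line marks equal values. ATG10, ATG16 and ATG9 lie far above the line and ATG1 lies below it, at 262 against 521.7.

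ATG1, which encodes the kinase that starts autophagy, was by far the most abundant transcript of the set. ATG1 (YGL180W, chromosome VII, 160065 to 162758, R64) had 517.1 and 567.4 TPM in ndt80pch2 libraries C and D, against 504 and 539.4 TPM in ndt80 libraries A and B. Its lowest library was above the highest library of every other member, and its mean level stood above 95.7% of the genes tested in ndt80pch2 and 95.3% in ndt80. The libraries of the strains overlapped, with a log2 fold change of 0.06 ± 0.09 (SE, limma adjusted p = 0.7753). Relative to the median change of all genes, which was -0.15, it was 0.20. With median-of-ratios factors, which remove most of that shift, both ndt80pch2 libraries lay above both ndt80 libraries, as for 22.4% of all genes.

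ATG8, the ubiquitin-like protein that coats the forming membrane and binds the receptors, was among the upper members but well under ATG1. ATG8 (YBL078C, chromosome II, 80378 to 80731, minus strand) had 179.4 and 123.9 TPM in ndt80pch2, against 141.3 and 178.7 TPM in ndt80. Each strain held one library at 178.7 TPM or above and one at 141.3 TPM or below, so the groups overlapped fully. The log2 fold change was -0.09 ± 0.20 (SE; limma adjusted p = 0.8286). As the coding region is 354 bases long, these levels rest on 60 to 119 reads per library. ATG1 stood 2.88- and 4.58-fold above ATG8 in ndt80pch2 and 3.57- and 3.02-fold above it in ndt80.

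The promoter windows of 4 members are shown because ATG8 holds the URS1 core, ATG1 is the most abundant, and ATG31 and ATG29 encode partners whose values differ in opposite directions. Each window runs from 250 bases before to 50 bases after the first coding base and was read 5′ to 3′ on the strand of the gene from the RefSeq R64 genome. The windows are chrII:80682-80981 (minus strand) for ATG8, chrVII:159815-160114 (plus) for ATG1, chrIV:488613-488912 (minus) for ATG31 and chrXVI:237088-237387 (plus) for ATG29. Capitals mark the letters searched for on both strands: GGCGGC, the core of URS1, which Ume6 binds; GATAAG, bound by GATA factors such as Gln3; AGGGG, the stress response element of Msn2 and Msn4; TGACTC, bound by Gcn4; and CACAAA, the core of the middle sporulation element bound by Ndt80.
ATG8: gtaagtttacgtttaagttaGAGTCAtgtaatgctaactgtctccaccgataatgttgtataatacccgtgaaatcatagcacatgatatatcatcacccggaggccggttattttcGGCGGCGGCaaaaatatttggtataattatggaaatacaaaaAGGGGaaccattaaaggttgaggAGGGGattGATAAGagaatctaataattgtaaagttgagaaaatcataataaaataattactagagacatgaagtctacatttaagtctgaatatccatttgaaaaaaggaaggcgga
ATG1: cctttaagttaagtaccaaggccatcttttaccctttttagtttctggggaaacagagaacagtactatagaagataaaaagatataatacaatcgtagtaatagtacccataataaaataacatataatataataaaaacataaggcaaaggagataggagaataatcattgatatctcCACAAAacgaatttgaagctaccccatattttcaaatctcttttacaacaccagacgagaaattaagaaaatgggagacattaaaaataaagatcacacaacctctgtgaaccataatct
ATG31: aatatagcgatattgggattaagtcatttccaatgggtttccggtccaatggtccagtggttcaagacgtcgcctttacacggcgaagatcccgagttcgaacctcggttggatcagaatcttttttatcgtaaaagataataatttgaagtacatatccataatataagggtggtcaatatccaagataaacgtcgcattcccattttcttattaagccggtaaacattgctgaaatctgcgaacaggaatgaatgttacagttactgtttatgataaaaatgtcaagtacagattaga
ATG29: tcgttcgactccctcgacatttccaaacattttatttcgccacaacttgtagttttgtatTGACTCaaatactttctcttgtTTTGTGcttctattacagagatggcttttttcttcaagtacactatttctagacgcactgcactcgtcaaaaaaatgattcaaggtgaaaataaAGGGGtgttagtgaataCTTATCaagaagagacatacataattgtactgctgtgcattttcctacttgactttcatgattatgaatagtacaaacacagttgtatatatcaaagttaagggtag

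In ATG8 the capitals near position -133 hold the URS1 core in overlapping copies that start at -133 and -130, counted from the first coding base, followed by AGGGG at -91 and -68 and GATAAG at -60. Together with the Gcn4 letters on the other strand at -230, ATG8 held 4 of the 5 motifs. ATG29 also held 4, with no URS1 core. ATG31 held none, and a tRNA gene on its strand (488797 to 488870) lies inside its window. Among the 30 windows of the set that were searched, the URS1 core was found in 1, against 5.12% of all 5979 windows of annotated genes. GATAAG was found in 8 of 30 (26.7%, against 14.7% of all windows), AGGGG in 6 (20%, against 21.7%), TGACTC in 6 (20%, against 7.99%) and CACAAA in 4 (13.3%, against 18.8%). With the 50 coding bases left out, TGACTC was found in 4 of 30, against 6.26% of all. A match describes letters in the reference strain, not a bound site in these cells, and a window without a match says nothing about the factor.

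**Figure D2:**
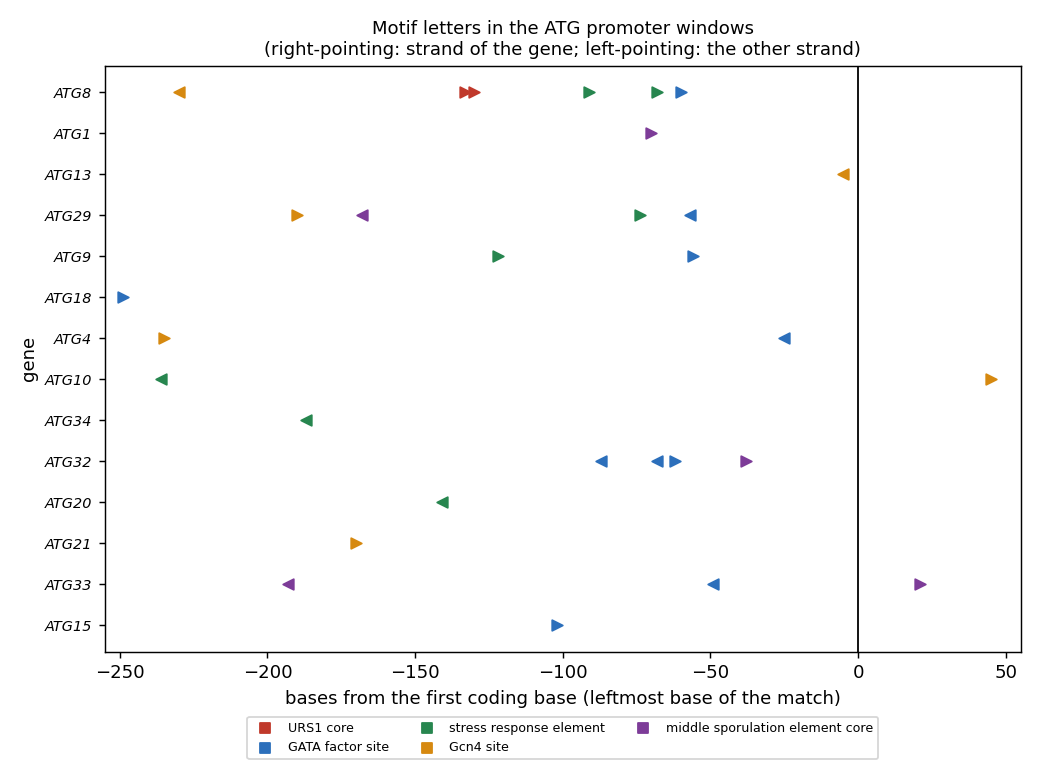
Position of the searched letters in the windows of the 14 ATG genes with a match; the x axis is the distance in bases from the first coding base, colours mark the motif, and triangles pointing right or left mark the strand of the gene or the other strand. ATG8 and ATG29 carry 4 kinds of motif each, and 16 of the 30 windows searched have no match.

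The other members of the Atg1 kinase complex were much less abundant than the kinase, and their values did not move one way. ATG13, the regulatory subunit that carries the nutrient signal, had 53.12 and 49.46 TPM in ndt80pch2, against 67.67 and 70.01 TPM in ndt80. ATG17, the scaffold of the complex (YLR423C, chromosome XII, 971917 to 973170, minus strand), had 25.61 and 24.48 TPM in ndt80pch2, against 36.63 and 45.78 TPM in ndt80. ATG29, which binds the scaffold through Atg31, had 26.68 and 22.77 TPM in ndt80pch2, against 36.23 and 37.26 TPM in ndt80. For these 3 genes both ndt80pch2 libraries lay under both ndt80 libraries, as they did for 42.4% of all genes tested and, after median-of-ratios factors, for 21.6%. ATG31, the bridge between Atg17 and Atg29 (YDR022C, chromosome IV, 488072 to 488662, minus strand), had 61.59 and 66.79 TPM in ndt80pch2, against 42.31 and 47.67 TPM in ndt80. Here both ndt80pch2 libraries lay above both ndt80 libraries, as they did for 9.41% of all genes (22.4% after those factors).

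None of these differences passed over all genes. Relative to the median of all genes, the log2 fold change of ATG31 was 0.65, the largest of any member in either direction, and that of ATG17 was -0.54, the largest below. Before that subtraction ATG31 had 0.51 ± 0.14 and ATG17 had -0.69 ± 0.18 (SE; limma adjusted p = 0.2864 and 0.284), and limma-voom on the recovered reads gave adjusted p = 0.2581 and 0.1801. Within each library the level of ATG31 over that of ATG17 was 2.4 and 2.73 in ndt80pch2, against 1.15 and 1.04 in ndt80. This ratio was chosen after the values were seen and was not tested. The reads behind it are few, with 42 to 108 for ATG17 and 43 to 54 for ATG31 in each library. ATG29 overlaps SET6 on the other strand. The sources used here do not state whether counting used strand, and without it reads of the overlap cannot be told apart.

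**Figure D3:**
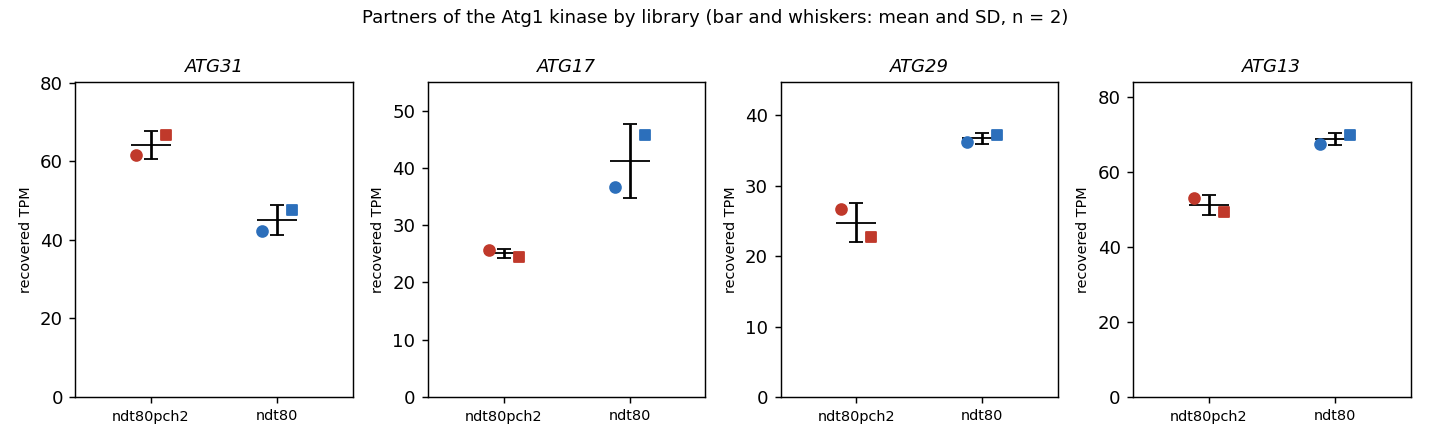
Recovered TPM of ATG31, ATG17, ATG29 and ATG13 in ndt80pch2 (left, red; circle library C, square D) and ndt80 (right, blue; circle library A, square B), with the mean and SD of 2 libraries; each y axis starts at 0. ATG31 averages 64.19 TPM in ndt80pch2 and 44.99 in ndt80, while the other 3 lie lower in ndt80pch2.

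The lipid kinase subunits named ATG stood low in the order of levels, ATG14 just above ATG10. ATG14, which directs Vps34 to autophagy, had 14.48 and 10.59 TPM in ndt80pch2, against 17.98 and 20.03 TPM in ndt80. ATG38, which links subunits of that complex, had 31.44 and 24.69 TPM in ndt80pch2, against 44.4 and 45.27 TPM in ndt80. Both genes were lower in both ndt80pch2 libraries, as were 42.4% of all genes, and stayed so after median-of-ratios factors (21.6% of all genes). Their log2 fold changes were -0.576 and -0.667 (limma adjusted p = 0.3237 and 0.284), or -0.43 and -0.52 relative to all genes. ATG38 is the 1 member with an intron, and its level was computed over 681 coding bases.

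The genes of membrane supply had mean levels from 55.4 to 197 TPM over the 4 libraries. ATG27, a membrane protein that travels with Atg9, had 175.8 and 181 TPM in ndt80pch2, against 208.1 and 222.1 TPM in ndt80 (log2 fold change -0.27 ± 0.09 (SE); limma adjusted p = 0.2864). ATG9, the lipid scramblase of the vesicles, averaged 103.1 ± 2.6 TPM in ndt80pch2 and 115.7 ± 4.86 TPM in ndt80 (SD, n = 2 each). ATG2, the lipid transfer protein, averaged 54.21 ± 3.37 TPM in ndt80pch2 and 56.58 ± 0.354 TPM in ndt80. ATG23 and ATG18, a trafficking factor and a phosphoinositide-binding partner of Atg2, lay between 48.44 and 107.3 TPM in all libraries. ATG27, ATG9 and ATG18 were lower in both ndt80pch2 libraries, 3 of the 5 genes (60%, against 42.4% of all genes), and ATG23 and ATG2 overlapped. After median-of-ratios factors only ATG27 stayed lower (20%, against 21.6%), and ATG2 was higher (20%, against 22.4%).

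Within the conjugation systems, levels ran over a wide range. ATG7, the activating enzyme shared by both systems, was highest, at 121.4 and 141.3 TPM in ndt80pch2, against 140.7 and 137.9 TPM in ndt80. ATG10, the conjugating enzyme of Atg12, was the lowest of the set, at 5.664 and 2.901 TPM in ndt80pch2, against 4.615 and 8.437 TPM in ndt80. Its values rest on 2 to 8 reads per library, and its log2 fold change was -0.51 ± 0.49 (SE; limma adjusted p = 0.591). ATG3 and ATG4, the conjugating enzyme and the protease of Atg8, averaged 89.92 ± 14.7 and 65.67 ± 1.8 TPM in ndt80pch2, and 88.82 ± 3.95 and 76.6 ± 8.1 TPM in ndt80 (SD, n = 2 each).

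ATG12 and ATG5 form one conjugate. ATG12, the ubiquitin-like partner, had 39.44 and 31.27 TPM in ndt80pch2, against 55.97 and 52.11 TPM in ndt80. ATG5, to which it is joined, had 58.87 and 50.39 TPM in ndt80pch2, against 73.59 and 78.68 TPM in ndt80. Relative to all genes the log2 fold changes were -0.46 for ATG12, -0.33 for ATG5 and -0.37 for ATG10. Without subtracting the median of all genes, ATG12 had -0.607 and ATG5 had -0.475 (limma adjusted p = 0.2864 for each). ATG12, ATG5 and ATG4 were lower in both ndt80pch2 libraries, 3 of the 7 genes (42.9%, against 42.4% of all genes). After median-of-ratios factors ATG12 and ATG5 stayed lower (28.6%, against 21.6%) and ATG4 overlapped. ATG16, which binds that conjugate, overlapped between the strains, at 20.48 and 17.75 TPM in ndt80pch2, against 17.97 and 25.81 TPM in ndt80. A listed reading frame on the other strand, YMR158W-B, overlaps ATG16.

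**Figure D4:**
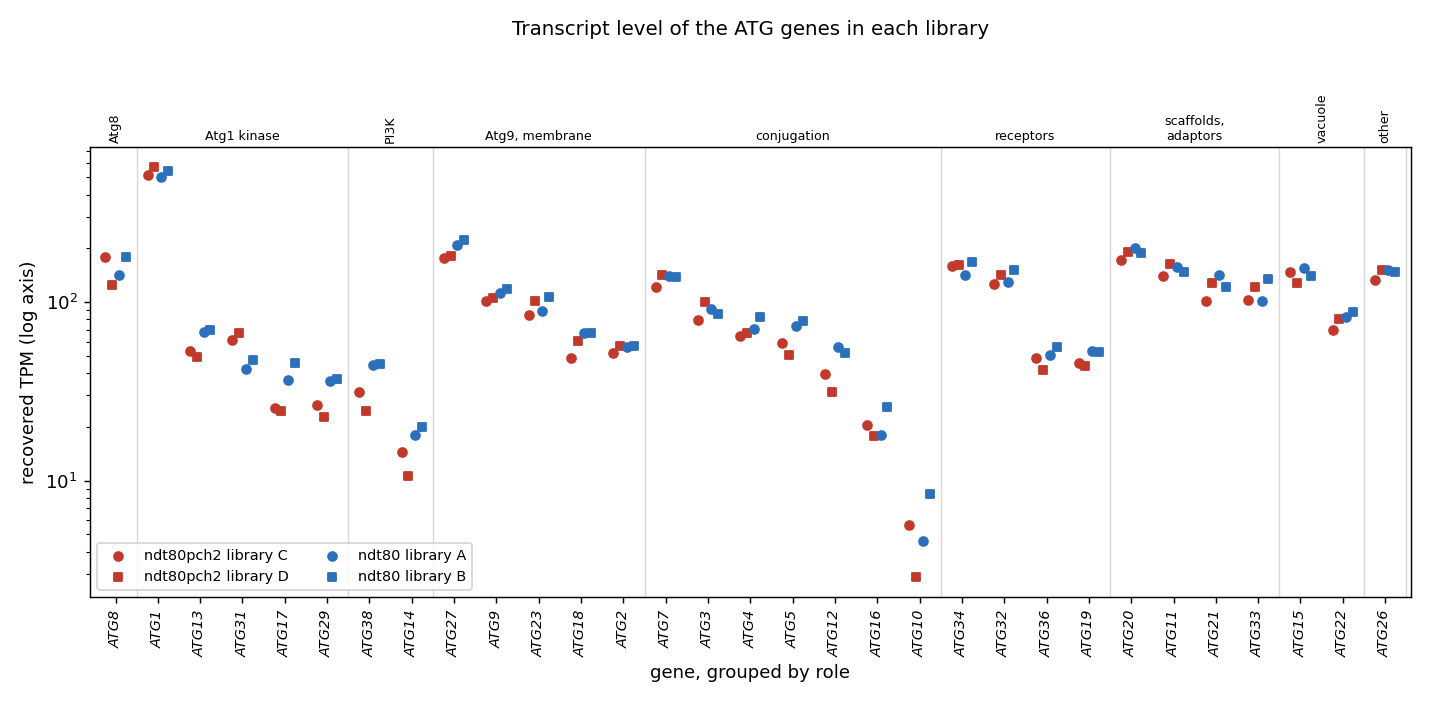
Recovered TPM (log axis) of the 31 ATG genes in libraries C and D of ndt80pch2 (red) and A and B of ndt80 (blue), grouped by role and ordered by mean within a role. ATG1 stands above every other gene at 504 to 567.4 TPM, and ATG16, ATG14 and ATG10 have the lowest means.

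The 4 selective receptors named ATG split into a higher and a lower pair. ATG34 (YOL083W, chromosome XV, 165714 to 166952), a receptor for the mannosidase Ams1 in starved cells, had 160.1 and 160.5 TPM in ndt80pch2, against 141.7 and 167.7 TPM in ndt80. ATG32, the mitophagy receptor, had 126.1 and 142.1 TPM in ndt80pch2, against 129.8 and 152.1 TPM in ndt80. ATG19 (YOL082W, chromosome XV, 168727 to 169974), the receptor of the Cvt pathway that delivers Ape1 in growing cells, had 45.75 and 43.93 TPM in ndt80pch2, against 53.11 and 52.81 TPM in ndt80. ATG36, the receptor for peroxisomes, had 48.55 and 41.44 TPM in ndt80pch2, against 50.76 and 56.05 TPM in ndt80. In every library both genes of the higher pair were above both genes of the lower pair.

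ATG34 and ATG19 encode related receptors and lie next to each other on one strand, 1774 bases apart. ATG34 was 3.5- and 3.65-fold above ATG19 in ndt80pch2 and 2.67- and 3.18-fold above it in ndt80. Reads of YOL083C-A, listed on the other strand within ATG34, cannot be told apart from its own without strand. Between strains the receptors had log2 fold changes relative to all genes of 0.20 (ATG34), 0.08 (ATG32), -0.09 (ATG19) and -0.10 (ATG36). Without subtracting the median of all genes they were 0.056, -0.07, -0.236 and -0.245, with limma adjusted p-values from 0.3809 to 0.8113. The cargo genes of the Cvt pathway did not pass the test either: APE1, encoding the aminopeptidase, had 153.6 ± 32.3 TPM in ndt80pch2 and 145 ± 18.8 TPM in ndt80, and AMS1 had 402.4 ± 49.8 TPM in ndt80pch2 and 406 ± 27.3 TPM in ndt80 (SD, n = 2 each; limma adjusted p = 0.8366 and 0.9472). Of the other aminopeptidase genes in the cargo list, APE4 had 73.35 ± 5.05 TPM in ndt80pch2 and 91.47 ± 4.86 TPM in ndt80 (unadjusted p = 0.03286, adjusted p = 0.2967 by limma), and LAP3 had 46.28 ± 2.58 TPM in ndt80pch2 and 49.94 ± 3.16 TPM in ndt80 (limma adjusted p = 0.6947).

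Scaffolds, adaptors and vacuolar genes were mostly among the more abundant members, all but ATG22 above 100 TPM. ATG20, a sorting nexin, had 173 and 190.4 TPM in ndt80pch2, against 200.5 and 189.1 TPM in ndt80. ATG11, the scaffold that brings receptors to Atg1, averaged 151.8 ± 17.2 TPM in ndt80pch2 and 152 ± 6.64 TPM in ndt80 (SD, n = 2 each). ATG21, a phosphoinositide-binding protein, and ATG33, a mitochondrial outer membrane protein needed for mitophagy, averaged 115 ± 19.1 and 112.6 ± 13.1 TPM in ndt80pch2, and 131.2 ± 14.6 and 118.5 ± 23.6 TPM in ndt80. All 4 overlapped between the strains. Of the genes for the last steps, ATG15, the vacuolar lipase that opens autophagic bodies, had 138.1 ± 13.3 TPM in ndt80pch2 and 146.7 ± 10.8 TPM in ndt80, and ATG22, a vacuolar amino acid exporter, had 75.15 ± 7.06 TPM in ndt80pch2 and 85.26 ± 3.99 TPM in ndt80. ATG26, a sterol glucosyltransferase, had 142.3 ± 12.9 TPM in ndt80pch2 and 149 ± 1.92 TPM in ndt80.

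Most neighbours in the order of levels were not resolved, while genes further apart could separate, as the higher and lower receptor pairs did. Ordered by the mean of the 4 libraries, 27 of the 30 neighbouring pairs had overlapping libraries. The exceptions were ATG1 above ATG27, ATG20 above ATG34, and ATG14 above ATG10. The 31 genes had a median level of 75.2 TPM in ndt80pch2 and 85.3 TPM in ndt80, against 50.9 and 57.7 TPM over all genes tested. By role, median levels in ndt80pch2 and ndt80 were 89.5 and 97.2 TPM for receptors, 133 and 142 TPM for scaffolds and adaptors, and 54.4 and 67.1 TPM for the 19 genes of the core machinery other than ATG8.

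Across the set, 0 of 31 genes were called between the strains by limma-trend at an adjusted p under 0.05, and 0 by limma-voom. Over all 5784 genes tested, limma-trend called 1 gene, PCH2 (0.0173%), and limma-voom 26 (0.45%). Without ndt80 library A or without B, limma-trend called 0 genes. At an unadjusted p under 0.05, 7 members were lower in ndt80pch2 (22.6%, against 13.1% of all genes) and 1 was higher (3.23%, against 2.7%). By limma-voom these counts were 5 lower and 1 higher, against 11.7% and 3.3% of all genes. The 7 were ATG17, ATG38, ATG12, ATG5, ATG13, ATG29 and ATG27, and all are in the core machinery, as is the 1 higher, ATG31.

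The median log2 fold change of the set was -0.17, against -0.15 for all genes, and -0.02 once the median of all genes was subtracted. By this measure 17 members lay below the median of all genes and 14 above. In 15 members no library of one strain fell among those of the other, 14 lower in ndt80pch2 (45.2%, against 42.4% of all genes) and 1 higher (3.23%, against 9.41%). These counts include the shift of all genes. With median-of-ratios factors, which move the median of all genes to -0.005, 9 were lower (29%, against 21.6%) and 4 were higher (12.9%, against 22.4%). The 4 were ATG1, ATG34, ATG2 and ATG31. Over the whole set, the share without overlap that was lower in ndt80pch2 thus lay near that of all genes, and above it with those factors. The share that was higher lay under that of all genes in both cases, and rests on 1 and 4 genes. These departures were not tested. In the 19 genes of the core machinery other than ATG8, 57.9% were lower and 5.26% higher. With those factors 42.1% were lower and 15.8% higher. Of the 4 receptors, 50% were lower (ATG19 and ATG36) and 0% higher, and with those factors 25% were lower (ATG19) and 25% higher (ATG34). Of the vacuolar genes ATG15 and ATG22, 50% were lower (ATG22) and 0% higher, and with those factors 0% in each direction. Scaffolds and adaptors had 0% in each case. Differences between roles in these shares were not tested. In these RNA samples of whole cultures, fewer cells of a type and less RNA per cell cannot be told apart.

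By role, relative to all genes the median of the core machinery other than ATG8 was -0.12, with 13 of 19 members below that median. Receptors had a median of -0.005, scaffolds and adaptors 0.07, and the vacuolar pair 0.01. ATG8 itself had 0.06. Without ndt80 library B the core median was 0.01, so its sign depends on that library, and that of the receptors was 0.085. The core median without B was the value of ATG10, which there rests on 4, 4 and 2 reads in libraries A, C and D. The differences between these groups were not tested.

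**Figure D5:**
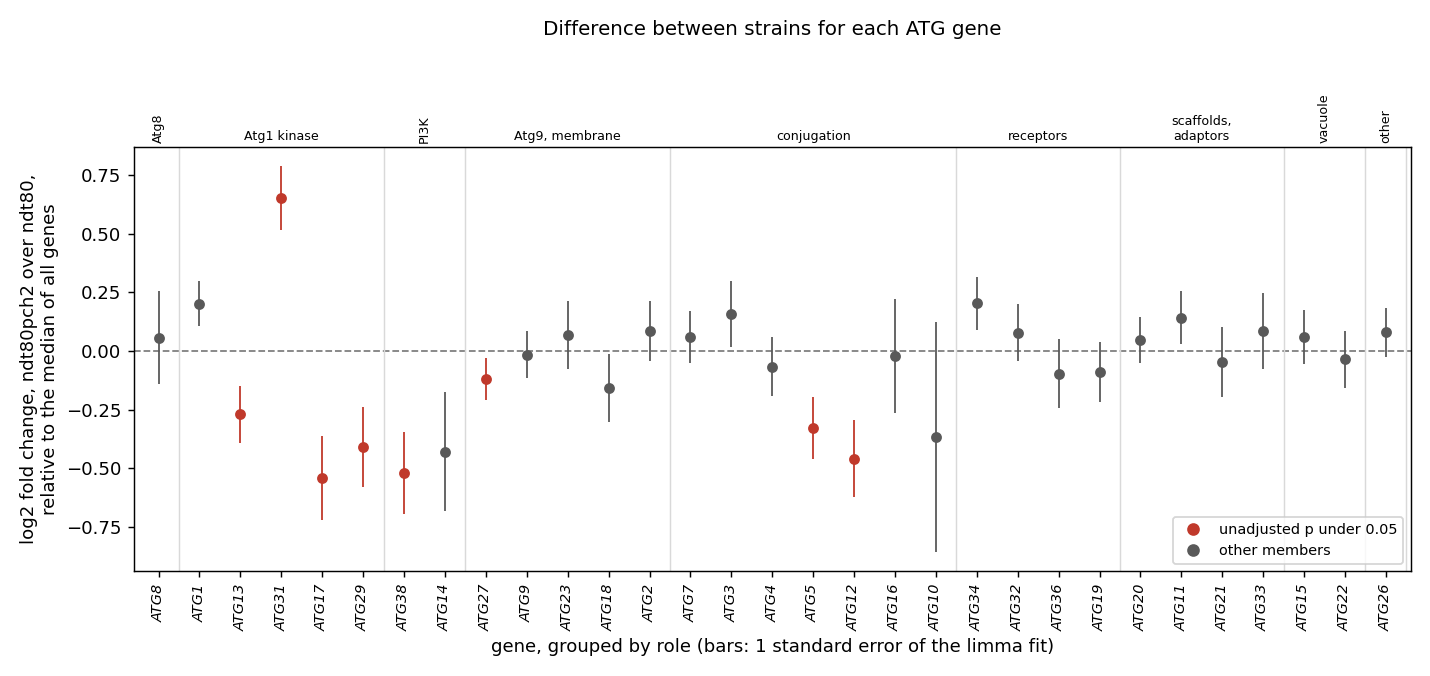
Log2 fold change of ndt80pch2 over ndt80 for each ATG gene relative to the median of all genes (dashed line at 0), grouped by role. Bars are 1 standard error of the limma fit. Red marks an unadjusted limma p under 0.05, which tests the change before that median is subtracted, not the distance from the dashed line. ATG31 lies highest at 0.65, ATG17 lowest at -0.54, and the receptors stay between -0.10 and 0.20.

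All 9 members with a mean under 50 TPM lay below the median of all genes, with a median of -0.41, and 10 of the 13 at or over 100 TPM lay above it, with a median of 0.06. Among all genes, 57.8% of those under 50 TPM lay below (median -0.06), and 32.7% of those at or over 100 TPM (median 0.07). These bounds were set after the values were seen, and the mean they use includes the difference itself: ATG31, at 44.99 TPM in ndt80 and above the median of all genes, passed 50 TPM through its ndt80pch2 level of 64.19 TPM. Low genes also varied more between libraries of a strain: the median absolute log2 difference under 50 TPM was 0.283 between C and D and 0.204 between A and B, and at or over 100 TPM it was 0.145 between C and D and 0.088 between A and B. The top 100 genes by level took up 33% and 34% of all TPM in ndt80pch2, and 30.3% and 30.9% in ndt80. The part of abundance in the members' differences was not tested.

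Other genes of the pathway were not called either. Of 50 names listed for partners, fusion factors, cargo, regulators and nutrient signalling, 45 were found under those names, and 0 of 45 were called by limma-trend or limma-voom. At an unadjusted p under 0.05, limma-trend had 6 lower in ndt80pch2 (13.3%, against 13.1% of all genes) and 0 higher (against 2.7%). By limma-voom 10 were lower (22.2%, against 11.7%) and 0 higher (against 3.3%). The median was -0.03 relative to all genes. The 3 with the smallest p were KOG1, a subunit of TOR complex 1, at 41.08 ± 2.36 TPM in ndt80pch2 and 54.25 ± 0.165 TPM in ndt80, VPS16, a vacuolar tethering subunit, at 33.89 ± 0.918 TPM in ndt80pch2 and 45.64 ± 3.39 TPM in ndt80, and TPK3, a protein kinase A catalytic subunit, at 13.83 ± 5.74 TPM in ndt80pch2 and 25.22 ± 2.01 TPM in ndt80 (SD, n = 2 each; limma adjusted p = 0.2864, 0.2894 and 0.2894). UME6, whose product represses ATG8 in growing cells, had 59.76 ± 7.94 TPM in ndt80pch2 and 62.97 ± 5.54 TPM in ndt80 (limma adjusted p = 0.7993). GCN4 was the most abundant of the 45, at 2626 ± 81.2 TPM in ndt80pch2 and 2499 ± 1.63 TPM in ndt80 (limma adjusted p = 0.7301). VPS34, the lipid kinase itself, had 60.93 ± 7.06 TPM in ndt80pch2 and 73.54 ± 3.32 TPM in ndt80 (limma adjusted p = 0.348).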

How the data were processed

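RNA-seq was run on total RNA, per the labels, from 2 yeast strains with 2 samples each. For each strain the authors deposited a single column of TPM-like values, 1 per gene, with no name; its scale was inferred from the values, and the sources used here do not say how it was made. The tools named, with no role, in the submitters' processing notes are HISAT2 2.1.0, DESeq2 2.11.40.6, HTSeq 0.9.1 and FastQC, and the build is R64 (sacCer3).

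Each value times coding length was solved as a sum of whole reads of 2 libraries, within 0.55 of the last printed digit. A solution was found for 99.98% of ndt80pch2 values, and for 99.95% of ndt80 values from row 94 when the second gene was taken from the list without mitochondrial genes, against 9.17% row by row and 9.21% with a random partner. The annotated coding length failed for 12 genes, of which 11 were solved with 1 other length. Values in all 4 libraries were had for 6647 of 6664 nuclear genes, and 17 were left out, none of them an autophagy gene. Solving was tested on simulated columns. Recovered reads over these genes numbered 1660157 in library C, 1658920 in D, 2104657 in A and 2310668 in B. The autophagy genes held 7600, 8052, 10111 and 11412 of them.

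On the log2(TPM + 1) scale, limma 3.58.1 (R 4.3.3) fitted all 4 libraries by genotype alone with the limma-trend setting and tested genes with a mean of at least 1 TPM, with Benjamini-Hochberg adjustment over all 5784 genes; such a fold change understates that of low genes. The planned per-sample test was used on recovered values, since none is deposited per sample. The fit was tested on simulated counts. Alternatives were a pseudocount of 0.1, no filter, a mean of at least 10 TPM, median-of-ratios factors, limma-voom on recovered reads, and leaving out each library.

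Of 6664 nuclear gene IDs, 5988 were in the reference annotation and 5981 had the same coordinates, among them all 31 autophagy genes. Every autophagy gene was named; other named genes were PCH2, NDT80, markers, and those with the smallest p in the pathway list. DMC1, APE1, AMS1, APE4, LAP3, UME6, GCN4, VPS34, genes listed under other names, and the kinase ratios were named after their values were seen. Members and lists were chosen with earlier results of these data known. The promoter window of 1 autophagy gene is not reported here. Receptor protein sequences, planned for a motif search, were not used here. Python 3.11.15 was used for solving and figures.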

Additional observations from a re-analysis of the deposited data

How the results depend on the processing

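No paired analysis was possible because the recovered libraries cannot be tied to the labelled replicate numbers. None of the 31 autophagy genes was called under any of the 9 alternatives, where the smallest adjusted p of a member was 0.1801 (limma-voom). Over all genes, 4 were called with a mean of at least 10 TPM and 26 by limma-voom, against 1 in the main test; leaving out 1 library gave 0 to 1, the call of PCH2 being lost without library A or B. The median of the autophagy genes relative to all genes was -0.02 and ran from -0.09 to 0.02 with 1 library left out, changing sign without B and without C. With 1 library left out, the core machinery ran from -0.177 to 0.012, receptors from -0.063 to 0.085, scaffolds and adaptors from -0.05 to 0.17, and the vacuolar pair from -0.004 to 0.023; the cause was not tested. A strain left with 1 library was taken to vary like the other strain. Of 278 member values under alternatives, 26 changed sign, all with a library left out, over 16 of 31 genes. ATG31 stayed between 0.57 and 0.74, ATG17 between -0.70 and -0.38, ATG29 between -0.51 and -0.32, ATG38 between -0.68 and -0.37, and ATG12 between -0.62 and -0.31. ATG8 ran from -0.20 without library C to 0.30 without D. Low read numbers limit ATG10, ATG14 and ATG16, and 28 members had at least 20 reads in every library.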

Other observations

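Genes that the reference table gives an ATG name were also listed under other names, and lie outside the rule used above: 8 were found. YLR312C (ATG39), a receptor for the nuclear envelope and nearby endoplasmic reticulum, had 648.7 and 673.6 TPM in ndt80pch2, against 700 and 698.9 TPM in ndt80, more than ATG1 in every library. YIL024C (ATG45), a receptor for glycogen, had 583.5 and 542.5 TPM in ndt80pch2, against 585.5 and 606.1 TPM in ndt80. YOR152C (ATG40), a receptor for the endoplasmic reticulum, had 62.02 and 92.92 TPM in ndt80pch2, against 52.79 and 56.53 TPM in ndt80. These groups did not overlap, as for 9.41% of all genes in this direction (22.4% after median-of-ratios factors). Its log2 fold change was 0.47 ± 0.20 (SE, limma adjusted p = 0.3189). ATG39 and ATG45 were lower in both ndt80pch2 libraries, as were 42.4% of all genes. After those factors ATG39 was higher and ATG45 overlapped. The order of receptors thus depends on which names are counted: both of the most abundant receptors are listed by their reading frame.

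ICY2 (ATG41), a factor for Atg9 traffic, had 221.2 ± 23.6 TPM in ndt80pch2 and 192.3 ± 34.2 TPM in ndt80 (SD, n = 2 each). SNX4 (ATG24), the sorting nexin partner of Atg20, had 303.9 ± 11.6 TPM in ndt80pch2 and 314.9 ± 17.4 TPM in ndt80. VPS30 (ATG6), a lipid kinase subunit, had 75.48 ± 2.38 TPM in ndt80pch2 and 80.97 ± 9.88 TPM in ndt80. YBR139W (ATG42), a vacuolar carboxypeptidase, had 146.9 ± 33.3 TPM in ndt80pch2 and 158.9 ± 13.1 TPM in ndt80. YIL156W-B (ATG44), a mitochondrial fission factor, had 9.8 ± 4.77 TPM in ndt80pch2 and 8.492 ± 8.31 TPM in ndt80. None of the 8 passed limma-trend. With them, the median log2 fold change over 39 genes was 0.05 relative to all genes, and that of 7 receptors was 0.07.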
